A study of Bubalus bubalis with 36 samples.

Results

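The collagen genes of buffalo adipose tissue (AT) were examined chain by chain. The members were all genes whose symbol in the expression table consists of COL, a type number, A and a chain number. The rule found 43 gene models with 40 symbols, out of 23032 gene models with 14523 symbols. Where a symbol had several gene models (COL6A5, COL8A1 and COL16A1), the model with the highest mean was used, and summing the models changed no call. The 40 chains comprised 11 fibrillar chains, 8 fibril-associated chains (FACITs, which bind to the surface of fibrils), 6 basement membrane chains, 6 beaded-filament chains and 9 chains of other structure. Of these, 36 had a mean above 0.1 FPKM (sequenced fragments scaled to transcript length and library size) and were tested. The other 4 averaged below it, namely COL11A1 (0.0536 FPKM), COL19A1 (0.0288 FPKM), COL6A4 (0.0108 FPKM) and COL26A1 (0.00208 FPKM). A further 5 known chains, COL9A1, COL9A3, COL10A1, COL18A1 and COL25A1, were not analysed here.

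Collagens are the main structural proteins of the extracellular matrix. Each collagen molecule is a helix wound from several chains, which may be copies of a single chain or products of different genes. Types I and III form the fibrils that give connective tissue its tensile strength, and type V sits inside these fibrils and limits their width. FACITs such as types XII, XIV and XVI link fibrils to the surrounding matrix. Type IV builds the sheet-like basement membrane that wraps every adipocyte and every capillary, and type VI forms beaded filaments in the zone around adipocytes. In adipose tissue, fibrillar collagens come mostly from fibroblasts and progenitor cells, whereas mature adipocytes and endothelial cells also make type IV.

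The data were 36 RNA sequencing libraries of river buffalo AT, 1 from each of 6 depots in each of 6 animals. The subcutaneous depots (SATs) were taken from the back (BSAT), from the sternum (SSAT) and from the inguinal region (IAT). The visceral depots (VATs) were fat of the omentum (OAT), fat around the heart (PCAT, pericardial) and fat around the kidney (PRAT, perirenal). The animals were weaned, fattened and slaughtered at 19 to 21 months of age, and no treatment or genetic change was applied. Animals 1 to 3 were males labelled Murrah and animals 4 to 6 were females labelled Nili-Ravi, so sex and breed cannot be told apart from the labels. Libraries with the same number came from the same animal, and the main tests treated them as separate samples. Their p-values therefore measure the spread between libraries, and the fits with the animal as a block are given where they change a call.

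Total FPKM per library was 796645 to 911384, and the number of reads per library is not known from these values. No adipocyte marker tested was listed at 0 in any library, and ADIPOQ, the fat hormone adiponectin, averaged 1149.9 FPKM. The summed FPKM of 18 adipocyte markers was nevertheless low in OAT 1 (1216), PRAT 4 (1588) and OAT 4 (1832). The B cell markers measured summed to 314 to 2755 FPKM in 6 libraries (OAT 1, PRAT 2, PRAT 4, OAT 4, IAT 4 and PCAT 2), against 8.36 to 140 FPKM in the other 30. BSAT 1 had a skeletal muscle marker sum of 2004 FPKM, against 9.40 to 91.6 FPKM in the other libraries. BSAT 3 had low values of 8 collagen chains, which are given in the closing section.

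FPKM is scaled by transcript length, so levels can be set side by side between chains. The 3 interstitial chains COL1A1, COL1A2 and COL3A1 led, with means of 24100 FPKM, 13284 FPKM and 12484 FPKM over all libraries. The chain with the highest mean among the beaded-filament genes was COL6A1 (3836 FPKM), and among the basement membrane genes it was COL4A2 (1243 FPKM). The leading chains of the FACIT and other classes were lower, at 33.4 FPKM for COL12A1 and 193 FPKM for COL8A1. Collagen chains together took 11.3% of a library's FPKM in SATs (median of 18, range 2.28% to 20.4%), against 2.64% in VATs (median of 18, range 0.637% to 11.6%). COL1A1, COL1A2 and COL3A1 together made up a median of 81.8% of collagen FPKM in SATs and 59.3% in VATs, with 39.1% in PRAT.

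**Figure D1:**
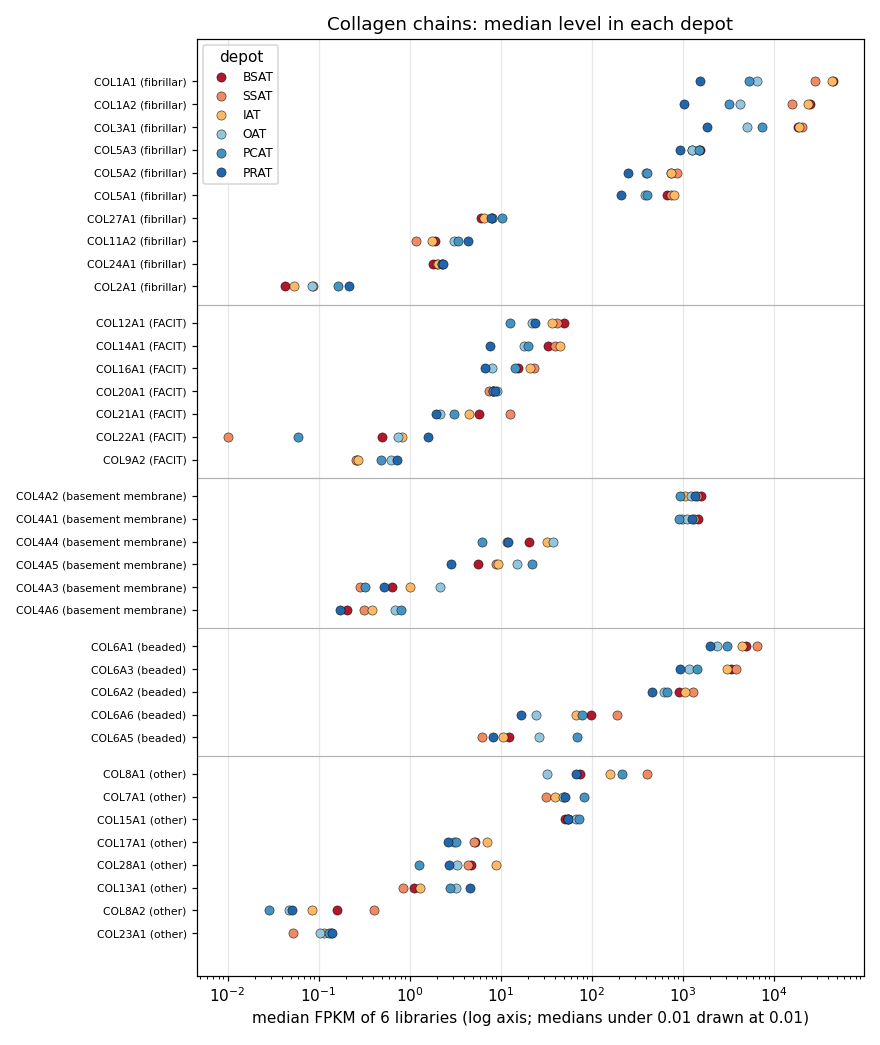
Median FPKM of each tested collagen chain in each depot (n = 6 libraries per depot), on a log axis and grouped by class. COL1A1 medians lie between 1555 FPKM in PRAT and 45216 FPKM in BSAT. The FACIT with the highest mean over all libraries, COL12A1, has depot medians of 12.7 FPKM in PCAT to 50.04 FPKM in BSAT.

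The make-up of the collagen pool also differed between the fat classes. Fibrillar chains made up a median of 85.3% of collagen FPKM in SATs and 69.7% in VATs, with the lowest depot median in PRAT (52.1%). Beaded-filament chains made up 11.2% in SATs and 18.4% in VATs, with 25.04% in PRAT. Basement membrane chains made up 3.00% in SATs and 10.8% in VATs, with 18.8% in PRAT. As a share of the whole library, however, basement membrane chains had similar medians (0.334% in SATs and 0.301% in VATs), so their larger share of VAT collagen went with the smaller amount of fibrillar RNA there. FACITs made up 0.138% of collagen FPKM in SATs and 0.289% in VATs. These shares are descriptions and were not tested.

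To reveal which chains differed between SATs and VATs, log2(FPKM + 0.1) was compared by limma over 17688 gene models, and a chain was called at an adjusted p below 0.05 (Benjamini-Hochberg over all gene models). Of the 36 chains, 15 were higher and 5 were lower in SATs. Over all gene models, 7.90% were higher and 22.1% were lower. The median log2 fold change was 0.68 over the chains, against −0.13 over all gene models. FPKM is scaled to library size, and collagen took a median of 11.3% of it in SATs and 2.64% in VATs. The all-gene values are therefore not independent of the chains, and the size of this effect was not tested. By class, 5 fibrillar chains rose and 3 fell out of 10 tested, 4 of 7 FACITs rose, 4 of 5 beaded-filament chains rose, 1 of 6 basement membrane chains fell, and 2 of 8 other chains rose while 1 fell. The class medians were 1.12 for beaded filaments, 1.00 for FACITs, 0.95 for fibrillar chains, 0.14 for the other chains and −0.31 for basement membrane chains. With the animal as a block over libraries, 18 chains were higher and 6 lower, and with the block on animal means (1 SAT and 1 VAT mean per animal), 16 were higher and 3 lower. Without BSAT 1, BSAT 2, SSAT 3 and IAT 1, which the study left out of its network, the calls of COL14A1 (adjusted p 0.0604), COL28A1 (0.0799), COL2A1 (0.0579), COL24A1 (0.0530) and COL4A6 (0.0711) were lost. After quantile normalization the all-gene median was −0.02, and 55.0% of the calls over all gene models were higher, against 26.3% without it.

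**Figure D2:**
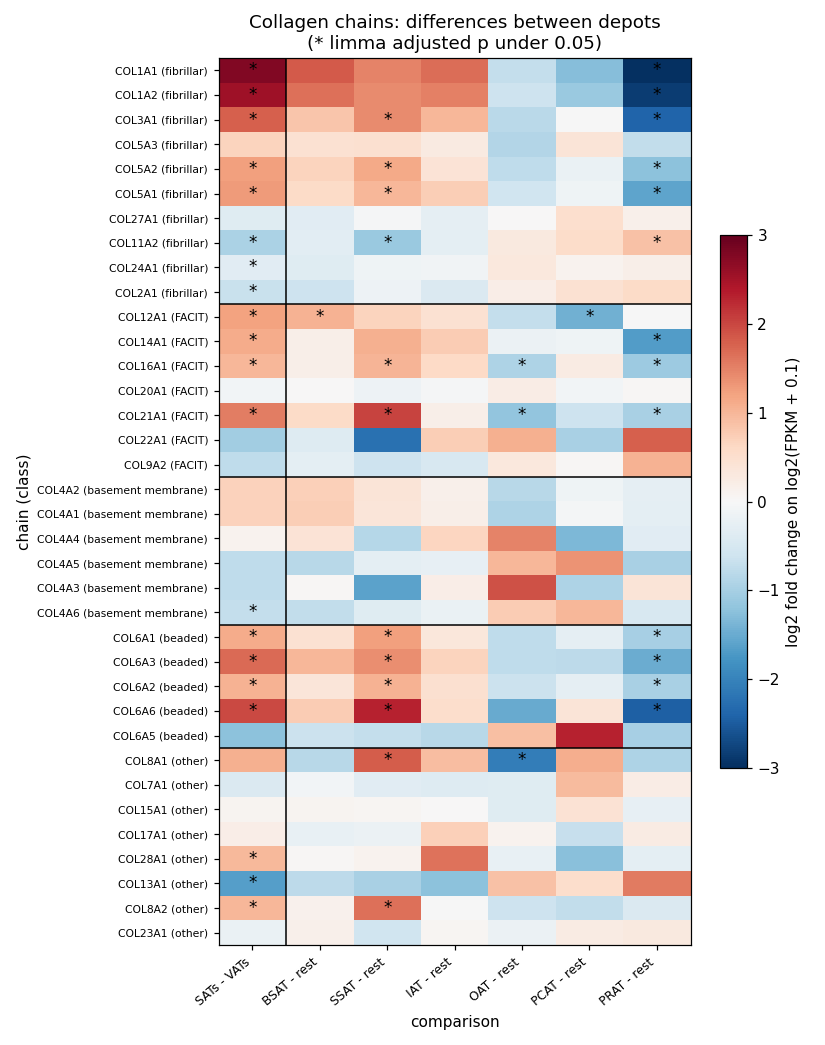
Log2 fold changes of the 36 tested chains (rows, by class) for SATs against VATs and for each depot minus the mean of its 5 counterparts (columns). Asterisks mark an adjusted p below 0.05. The SAT, SSAT and PRAT columns hold most of the calls, with 20, 12 and 13 chains.

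The type I chains had the largest changes before quantile normalization. COL1A1 (evm.model.chr3.685) had a lowest, median and highest level of 5252, 39462 and 96236 FPKM in SATs, against 827, 5487 and 41682 FPKM in VATs. Its depot medians were 45216 FPKM in BSAT, 28231 FPKM in SSAT, 43388 FPKM in IAT, 6642 FPKM in OAT, 5397 FPKM in PCAT and 1555 FPKM in PRAT. The 3 SAT medians lay above the 3 VAT medians, but single libraries overlapped, since BSAT 3 (5252 FPKM) was low and PCAT 1 (41682 FPKM) was high. COL1A1 was 2.78 higher in SATs on the log2 scale (SE 0.43, limma adjusted p 2.0e-05) and higher in 6 of 6 animals. Its partner chain COL1A2 had 2734, 21898 and 43918 FPKM in SATs, against 566, 3429 and 21729 FPKM in VATs. It was 2.54 higher (SE 0.40, adjusted p 3.1e-05). After quantile normalization the differences were 1.63 for COL1A1 and 1.74 for COL1A2, and both were still called. The largest difference was then that of COL6A6 (2.11), and those of COL6A3 (1.68) and COL21A1 (1.67) were also above that of COL1A1. Quantile normalization gives all libraries the same values at each rank. It thereby limits the differences of chains at the highest levels, such as COL1A1, so this order is not a ranking free of that limit.

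The other chains of the interstitial fibril followed with smaller differences. COL3A1, the only chain of type III, had 1783, 19022 and 40601 FPKM in SATs and 770.3, 4947 and 24459 FPKM in VATs, a difference of 1.80 (SE 0.37, adjusted p 0.000455). The fibril-limiting COL5A1 had 229, 695 and 1279 FPKM in SATs and 65.7, 295 and 605 FPKM in VATs, a difference of 1.29 (SE 0.24, adjusted p 0.000226). COL5A2 had 334, 764 and 1439 FPKM in SATs and 105, 369 and 570.4 FPKM in VATs, a difference of 1.22 (SE 0.21, adjusted p 8.6e-05). All 3 chains were higher in SATs in 6 of 6 animals, with overlapping ranges. After quantile normalization the differences were 1.07 for COL3A1, 1.42 for COL5A1 and 1.33 for COL5A2, and all 3 were still called.

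The third type V chain did not follow COL5A1 and COL5A2. COL5A3 had 846, 1486 and 2291 FPKM in SATs and 101, 1299.6 and 2512 FPKM in VATs. Its median was above those of COL5A1 and COL5A2 in both fat classes. The difference was 0.67 (SE 0.32, adjusted p 0.11), with 3 of 6 animals higher, and it passed with the animal as a block over libraries (adjusted p 0.0495) but not with the block on animal means (adjusted p 0.182). The low VAT values were those of OAT 1 (101 FPKM), OAT 4 (168 FPKM), PRAT 4 (201 FPKM) and PRAT 2 (460 FPKM), which are libraries with high B cell sums. Without the 6 libraries with such sums the difference was 0.09 (adjusted p 0.747).

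The fibrillar chains that fell in SATs, COL11A2, COL2A1 and COL24A1, all had low levels. COL11A2, which limits fibril width in cartilage, had 0.594, 1.66 and 2.64 FPKM in SATs and 0.994, 3.50 and 5.27 FPKM in VATs. It fell by 0.96 (SE 0.21, adjusted p 0.000851) and was lower in 6 of 6 animals. COL2A1, the major collagen of cartilage, had medians of 0.0581 FPKM in SATs and 0.164 FPKM in VATs and fell by 0.68 (SE 0.21, adjusted p 0.0152). COL24A1, known from developing bone in mice, had medians of 2.02 FPKM in SATs and 2.31 FPKM in VATs and fell by 0.33 (SE 0.12, adjusted p 0.0361). The COL24A1 call was lost with quantile normalization (adjusted p 0.193), without BSAT 1 (adjusted p 0.0605), without animal 1, 2, 5 or 6 (adjusted p 0.0619 to 0.167) and without the 6 libraries rich in B cell genes (−0.21, adjusted p 0.157), and the COL2A1 call was lost without animal 3, 5 or 6 (adjusted p 0.0649 to 0.0930). COL27A1 had a difference of −0.36 that did not pass (adjusted p 0.103). Of 7 cartilage markers tested, 1 was higher (EPYC, 1.21) and 1 was lower (MATN1) in SATs, against 7.90% and 22.1% over all gene models. HAPLN1, a cartilage link protein, was listed at 0 in 24 libraries. In contrast, EPYC (mean 228 FPKM), CNMD (94.4 FPKM), CILP2 (12.8 FPKM) and ACAN (9.91 FPKM) were listed at 0 in no library. MATN1 and MATN3 were at 0 in 2 libraries each.

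**Figure D3:**
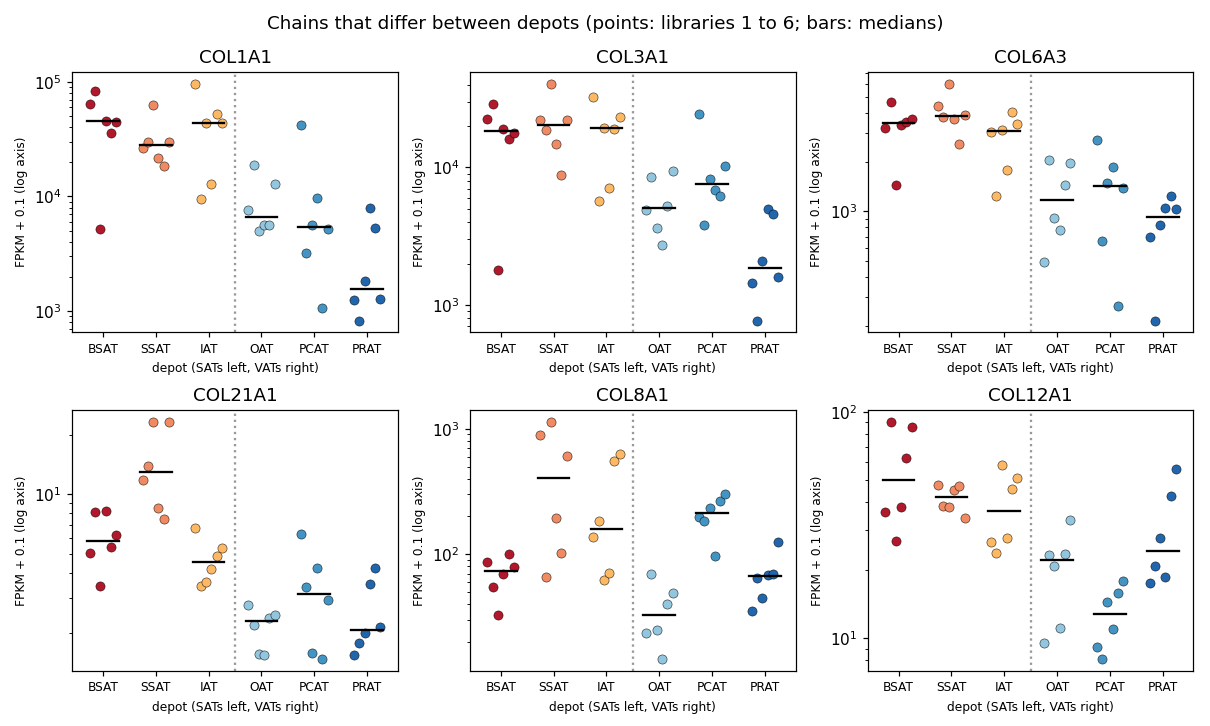
FPKM + 0.1 of 6 chains in every library by depot, on a log axis, with bars at the depot medians and SATs left of VATs. COL1A1, COL3A1 and COL6A3 are high in the 3 SATs and lowest in PRAT, COL21A1 and COL8A1 are highest in SSAT, and COL12A1 is lowest in PCAT.

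Among the FACITs, 4 chains rose in SATs. COL21A1, a FACIT of blood vessel walls and other tissues, had 3.34, 6.40 and 23.0 FPKM in SATs and 1.38, 2.18 and 6.21 FPKM in VATs, a difference of 1.54 (SE 0.24, adjusted p 2.3e-05). COL12A1, found on fibrils of tendon and fascia, had 23.6, 41.9 and 90.2 FPKM in SATs and 8.02, 18.2 and 56.0 FPKM in VATs, a difference of 1.21 (SE 0.22, adjusted p 0.000121). COL16A1, which links cells and fibrils, had 7.22, 19.2 and 37.3 FPKM in SATs and 4.34, 9.67 and 24.2 FPKM in VATs, a difference of 1.00 (SE 0.21, adjusted p 0.000768). These 3 chains were higher in SATs in 6 of 6 animals although their ranges overlapped. COL14A1 had 6.22, 36.7 and 77.8 FPKM in SATs and 4.00, 17.2 and 49.4 FPKM in VATs, a difference of 1.11 (SE 0.33, adjusted p 0.0111) that was lost without animal 6 (adjusted p 0.0531).

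The remaining FACITs did not pass. COL20A1 was the steadiest chain, with 6.67, 8.04 and 11.1 FPKM in SATs and 6.97, 8.91 and 11.1 FPKM in VATs (difference −0.09, adjusted p 0.274). COL22A1, known from tissue junctions such as muscle and tendon, had medians of 0.426 FPKM in SATs and 0.739 FPKM in VATs (difference −1.05, adjusted p 0.273). Its highest values were in OAT 1 (29.2 FPKM), PCAT 2 (13.8 FPKM) and PRAT 2 (12.3 FPKM), and without the 6 libraries rich in B cell genes the difference was −0.22 (adjusted p 0.825). COL9A2, a cartilage FACIT, had medians of 0.270 FPKM in SATs and 0.624 FPKM in VATs and a difference of −0.77 (adjusted p 0.0722), with 0 of 6 animals higher in SATs. COL9A2 passed with the animal as a block (adjusted p 0.00406) and also without BSAT 3 (adjusted p 0.0311), where it was listed at 1.67 FPKM.

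The chains of type VI collagen rose together in SATs. COL6A1 (evm.model.chr1.1000) had 2191, 5099.6 and 9373 FPKM in SATs and 974, 2128 and 4519 FPKM in VATs, a difference of 1.12 (SE 0.19, adjusted p 7.6e-05). Its neighbour COL6A2 had 480.4, 1046 and 1665 FPKM in SATs and 208, 534 and 870.5 FPKM in VATs, a difference of 1.04 (SE 0.18, adjusted p 0.000101). COL6A3, the long chain of the same filament, had 1247, 3455 and 6012 FPKM in SATs and 215, 1042 and 2743 FPKM in VATs, a difference of 1.70 (SE 0.26, adjusted p 2.0e-05). COL6A3 is the chain from which the signalling fragment endotrophin is cut. COL6A6, a chain related to COL6A3, had 48.1, 112 and 769.6 FPKM in SATs and 4.49, 24.4 and 185 FPKM in VATs, a difference of 1.99 (SE 0.41, adjusted p 0.000534). All 4 were higher in SATs in 6 of 6 animals.

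COL6A5, the remaining beaded-filament chain tested, did not move with them. It had 2.36, 8.09 and 95.1 FPKM in SATs and 1.19, 22.6 and 390.1 FPKM in VATs, a difference of −1.23 (SE 0.64, adjusted p 0.137). It was the most uneven of the type VI chains, and PCAT 4 (390.1 FPKM) and PCAT 2 (147 FPKM) held its highest values.

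The basement membrane chains gave 1 call, a low chain that fell. The leading pair, COL4A1 and COL4A2, are made together in nearly every basement membrane. COL4A1 had 748, 1359 and 2141 FPKM in SATs and 107, 1129 and 1481 FPKM in VATs. COL4A2 had 768, 1454 and 2254 FPKM in SATs and 115, 1224 and 1783 FPKM in VATs. Their differences were 0.70 (SE 0.28, adjusted p 0.0505) and 0.69 (SE 0.28, adjusted p 0.0569), just short of the threshold. Both passed with the animal as a block over libraries (adjusted p 0.0299 and 0.0330) but not with the block on animal means (adjusted p 0.0971 and 0.116). They also passed without animal 3 (adjusted p 0.0372 and 0.0392), with quantile normalization (adjusted p 0.0386 and 0.0378) and over gene models of at least 10 FPKM (adjusted p 0.0435 and 0.0489).

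The VAT range of COL4A1 was set by a few libraries. OAT 1 (107 FPKM), OAT 4 (193 FPKM), PRAT 4 (256 FPKM) and PRAT 2 (417 FPKM) lay below all other libraries, which had 679 to 2141 FPKM. These 4 were among the 6 with high B cell sums. Without those 6 libraries the difference was 0.18 for COL4A1 (adjusted p 0.364) and 0.15 for COL4A2 (adjusted p 0.486). The endothelial markers had 1 of 12 called higher in SATs and none lower, against 7.90% higher and 22.1% lower over all gene models. The endothelial markers summed to 732 to 2428 FPKM in SATs and 305 to 2556 FPKM in VATs. Their part in the type IV values was not tested.

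**Figure D4:**
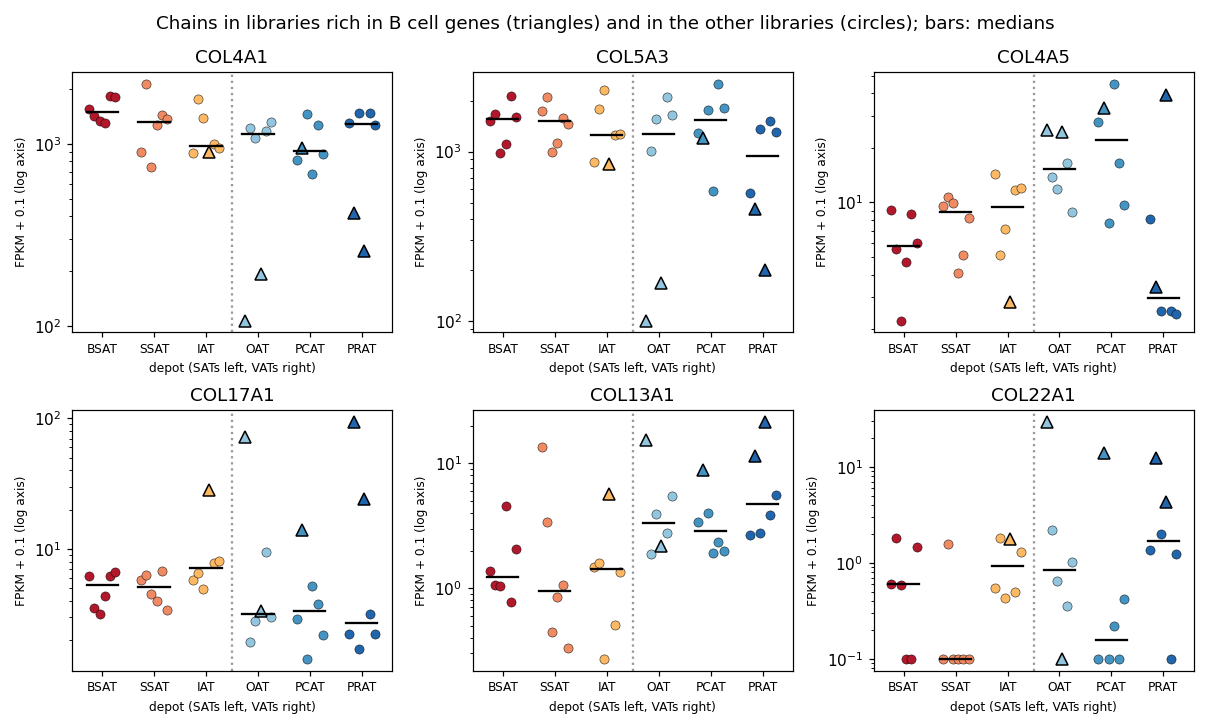
FPKM + 0.1 of 6 chains in every library by depot, on a log axis, with triangles for the 6 libraries rich in B cell genes and bars at the depot medians. COL4A1 and COL5A3 are low in 4 of these libraries (COL4A1 107 to 417 FPKM), and COL17A1 is high in several of them (14.0 to 93.7 FPKM in 5).

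The minor type IV chains varied by library more than by fat class. COL4A3 and COL4A4, neighbouring genes whose chains are assembled together in kidney and lung basement membranes, both peaked in OAT 2 (COL4A3 16.3 FPKM, COL4A4 142 FPKM) and in PRAT 1 (COL4A3 24.4 FPKM, COL4A4 104 FPKM). Their differences did not pass (−0.76 with adjusted p 0.268 for COL4A3, and 0.11 with adjusted p 0.887 for COL4A4). COL4A5 and COL4A6, another pair of neighbours, were both highest in PCAT 4 (COL4A5 45.0 FPKM, COL4A6 1.97 FPKM) and PRAT 4 (COL4A5 39.0 FPKM, COL4A6 2.67 FPKM). COL4A5 had medians of 7.61 FPKM in SATs and 12.8 FPKM in VATs (difference −0.76, adjusted p 0.103, and −0.39 with adjusted p 0.430 without the 6 libraries rich in B cell genes). COL4A6 had 0.135, 0.311 and 0.663 FPKM in SATs and 0.108, 0.518 and 2.67 FPKM in VATs, and it fell by 0.73 (SE 0.27, adjusted p 0.0426). The COL4A6 call was lost with a pseudocount of 0.01 (adjusted p 0.0582), with no filter (0.0539) and with quantile normalization (0.0764). It was also lost without animal 4 (difference −0.30, adjusted p 0.368), without BSAT 3 (adjusted p 0.0601), without animals 1, 2 or 5 (adjusted p 0.0508 to 0.0898) and without the 6 libraries rich in B cell genes (−0.44, adjusted p 0.206).

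Among the chains of other structure, COL8A2 and COL28A1 rose in SATs and COL13A1 fell. COL8A2, a short-chain collagen of the corneal and vascular matrix, had 0.0168, 0.204 and 1.19 FPKM in SATs and 0.00808, 0.0420 and 0.134 FPKM in VATs, a difference of 0.99 (SE 0.22, adjusted p 0.00122). COL28A1, found around peripheral nerve in mice, had 1.24, 5.60 and 23.5 FPKM in SATs and 0.391, 2.63 and 15.1 FPKM in VATs, a difference of 0.98 (SE 0.35, adjusted p 0.0335). This call was lost without animal 3, 5 or 6 (adjusted p 0.0659 to 0.132) and without the 6 libraries rich in B cell genes (0.82, adjusted p 0.109). COL13A1, a transmembrane collagen of neuromuscular junctions and other adhesion sites, had 0.170, 1.10 and 13.3 FPKM in SATs and 1.77, 3.51 and 21.4 FPKM in VATs. It fell by 1.66 (SE 0.41, adjusted p 0.00304) and by 1.33 without the 6 libraries (adjusted p 0.0129), and was lower in 6 of 6 animals.

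COL8A1 was abundant but did not pass between the fat classes. It had 32.8, 101 and 1132 FPKM in SATs and 14.6, 69.0 and 303 FPKM in VATs (difference 1.06, SE 0.46, adjusted p 0.0776), and it passed without BSAT 3 (1.19, adjusted p 0.0460), in the fit with 6 depots (adjusted p 0.0178) and on animal means with the animal as a block (adjusted p 0.0209). COL17A1, an epithelial hemidesmosome chain, was high in PRAT 2 (93.7 FPKM), OAT 1 (72.4 FPKM), IAT 4 (28.1 FPKM), PRAT 4 (24.0 FPKM) and PCAT 2 (14.0 FPKM), and stood at 3.27 FPKM in OAT 4. Its difference was 0.19 with all libraries (adjusted p 0.763) and 0.91 without the 6 libraries rich in B cell genes (adjusted p 0.00150). Of 4 skin epithelium markers tested, 0 rose and 1 fell in SATs, against 7.90% and 22.1% over all gene models.

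The 6 libraries also changed 2 other chains. COL7A1, the anchoring fibril chain, had medians of 38.6 FPKM in SATs and 65.5 FPKM in VATs, with a difference of −0.45 (adjusted p 0.146) that became −0.75 without them (adjusted p 0.00437). COL15A1, which lies at the outer face of basement membranes, had medians of 54.4 FPKM in SATs and 72.3 FPKM in VATs. Its difference was 0.09 with all libraries (adjusted p 0.824), whereas it was −0.42 without the 6 (adjusted p 0.0355). COL23A1, a transmembrane chain, had medians of 0.101 FPKM in SATs and 0.121 FPKM in VATs (difference −0.21, adjusted p 0.382). The count of called chains without the 6 libraries was again 15 higher and 5 lower.

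To reveal whether chains of the same fibril or filament kept their proportions, the log2 ratio of 12 chain pairs was compared within animals, as the mean of 3 SATs minus the mean of 3 VATs. An exact 2-sided sign-flip permutation test over 6 animals can reach 0.03125 at the lowest. The lowest p after Benjamini-Hochberg adjustment over the 12 ratios was 0.0625, shared by 6 ratios, and no ratio passed. With that floor, 6 of 12 ratios at the lowest p cannot pass, so the lack of a call does not show that proportions were kept. The COL1A1/COL1A2 ratio had a median of 1.80 in SATs and 1.51 in VATs, and was 0.24 higher on the log2 scale (SD 0.06, n = 6, exact p 0.03125) in 6 of 6 animals. Ratios were not computed after quantile normalization, which limits differences at the highest levels. After it, COL1A2 (1.74) differed more between SATs and VATs than COL1A1 (1.63). The COL4A1/COL4A2 ratio stayed within 0.743 to 1.08 over all 36 libraries, although each of the chains ranged widely. Its SD was 0.10 on the log2 scale, against 0.91 for COL4A1 and 0.92 for COL4A2. Its difference between SATs and VATs was 0.01 (SD 0.07, n = 6, exact p 0.625). The COL6A1/COL6A2 ratio was also steady (SD 0.20 over 36 libraries, difference 0.09, exact p 0.0625, adjusted p 0.0938).

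The other chains set against COL1A1 had lower ratios in SATs. Each of these differences restates that the chain differed less than COL1A1 did. The ratios share COL1A1 as denominator, so their p-values are not separate results. The COL3A1/COL1A1 ratio had a median of 0.461 in SATs and 0.892 in VATs, a difference of −0.98 (SD 0.62, n = 6, exact p 0.03125), and it was lower in 6 of 6 animals. The highest ratio, 5.79, was that of PCAT 5, where COL1A1 was 1064 FPKM. The COL5A1/COL1A1 ratio had a median of 0.0202 in SATs and 0.0670 in VATs, a difference of −1.49 (SD 0.63, n = 6, exact p 0.03125). The COL12A1/COL1A1 and COL14A1/COL1A1 ratios differed by −1.57 and −1.67 (exact p 0.03125 each), again lower in SATs in 6 of 6 animals. The COL6A3/COL6A1 ratio had a median of 0.648 in SATs and 0.487 in VATs, a difference of 0.58 (SD 0.34, n = 6, exact p 0.03125) with 6 of 6 animals higher. Differences of COL5A1/COL5A2 (0.07), COL8A1/COL8A2 (0.07) and COL4A5/COL4A1 (−1.46) had exact p of 0.594, 0.75 and 0.188. COL11A1/COL5A1 differed by −0.77 (exact p 0.0625), but COL11A1 was above 0.1 FPKM in 6 of 36 libraries, and COL8A2 in 14.

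**Figure D5:**
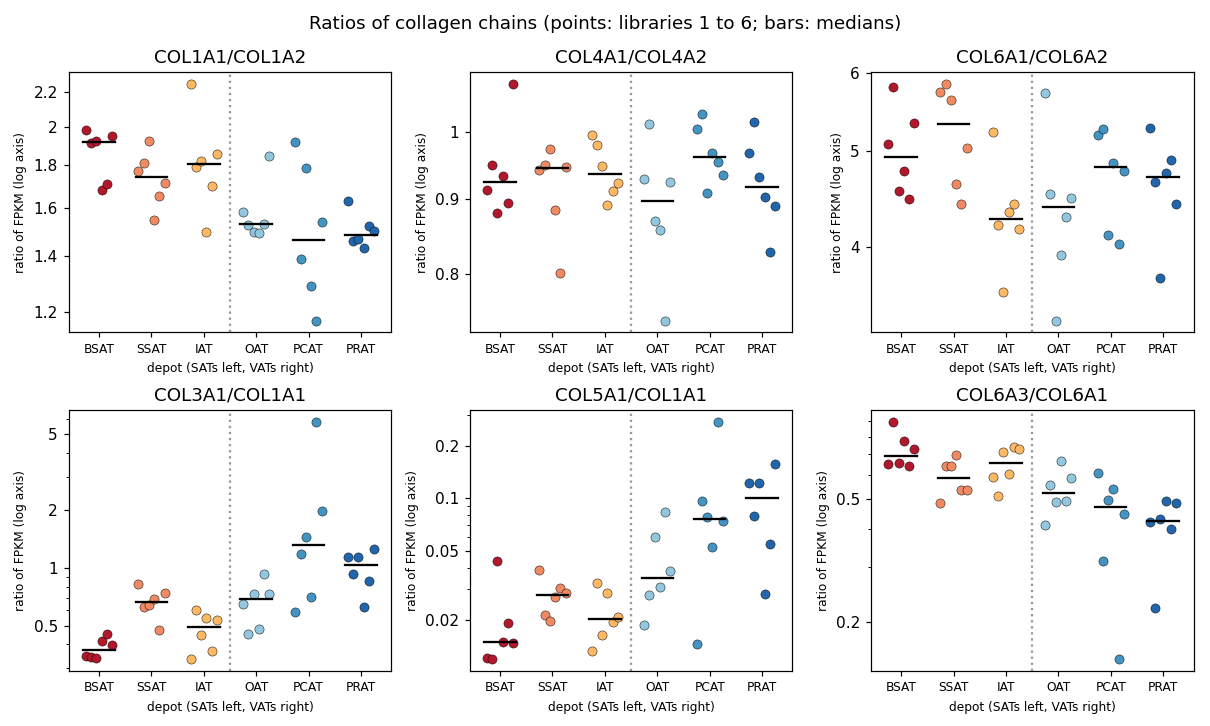
Ratios of FPKM + 0.1 between chains in every library by depot, on log axes that differ between panels, with bars at the depot medians. COL4A1/COL4A2 stays between 0.743 and 1.08, whereas COL3A1/COL1A1 has medians of 0.461 in SATs and 0.892 in VATs.

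Each depot was then compared with the mean of the other 5 depots. These comparisons share libraries, so their values are given side by side. Quantile normalization moved the share of higher calls among all called gene models to 70.4% from 42.7% for SSAT, to 42.4% from 69.8% for PRAT, to 62.3% from 76.4% for PCAT, to 26.8% from 42.8% for OAT and to 40.4% from 26.1% for BSAT. SSAT had the most chains above the others. In SSAT, 11 of 36 chains were higher and 1 was lower, against 3.90% higher and 5.23% lower over all gene models. SSAT had the highest median for 10 chains (27.8%, against 15.8% of all gene models) and the lowest for 9, against 25.8% of all gene models. All 4 type VI chains named above were higher (COL6A1 1.22, COL6A2 1.04, COL6A3 1.39 and COL6A6 2.31). The others were COL3A1 (1.42), COL5A1 (1.00), COL5A2 (1.13), COL16A1 (1.02), COL21A1, COL8A1 and COL8A2, and COL11A2 fell by 1.12 (adjusted p 0.00798). The mean of the other depots includes the VATs, and COL5A1 had its highest depot median in IAT. COL3A1 had 8774 to 40601 FPKM in SSAT, 5691 to 32248 FPKM in IAT and 1783 to 28778 FPKM in BSAT.

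COL21A1 was the clearest SSAT chain. It had 7.40, 12.8 and 23.0 FPKM in SSAT. The depot medians elsewhere were 5.73 FPKM in BSAT, 4.44 FPKM in IAT, 2.18 FPKM in OAT, 3.06 FPKM in PCAT and 1.97 FPKM in PRAT. The SSAT difference was 2.02 (SE 0.25, adjusted p 5.0e-06), and the SSAT range overlapped only that of BSAT, whose highest library had 8.16 FPKM. COL6A6 had 112, 189 and 769.6 FPKM in SSAT, with its maximum in SSAT 3, against depot medians of 98.4 FPKM in BSAT, 67.1 FPKM in IAT, 24.4 FPKM in OAT, 78.5 FPKM in PCAT and 16.8 FPKM in PRAT (adjusted p 0.000939).

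The short-chain collagens of type VIII were also highest in SSAT, although unevenly between animals. COL8A1 had 65.7, 403 and 1132 FPKM in SSAT, a difference of 1.81 (SE 0.46, adjusted p 0.0116). Its 6 SSAT values spread widely, and its depot medians elsewhere were 74.1 FPKM in BSAT, 160.02 FPKM in IAT, 32.6 FPKM in OAT, 215 FPKM in PCAT and 66.7 FPKM in PRAT. COL8A2 had 0.219, 0.403 and 1.19 FPKM in SSAT, a difference of 1.66 (SE 0.23, adjusted p 4.2e-05), with other depot medians of 0.0284 to 0.158 FPKM. COL8A2 averaged 0.152 FPKM and was above 0.1 FPKM, the value added before taking logs, in only 14 libraries. Without animal 3, 5 chains were called higher in SSAT, and without animal 6, 7 were. The higher calls over all gene models also fell, from 690 to 227 without animal 3 and to 223 without animal 6. The calls of COL3A1 (adjusted p 0.159 and 0.129), COL5A1 (0.170 and 0.119), COL6A3 (0.0932 and 0.0515) and COL8A1 (0.144 and 0.0533) were lost in both cases. Their differences, in this order, were 1.08, 0.82, 1.25 and 1.3 without animal 3. Without animal 6 they were 1.45, 1.02, 1.49 and 1.78. The COL3A1 call was also lost without animal 1, 2 or 4 (adjusted p 0.0550 to 0.0684), with quantile normalization (0.0575) and with no filter (0.0535), and the calls of COL5A1 (0.0775) and COL8A1 (0.0964) were lost without animal 1. Without BSAT 1, BSAT 2, SSAT 3 and IAT 1, those of COL3A1 (0.0947), COL5A1 (0.0849), COL6A3 (0.0583), COL8A1 (0.0993) and COL11A2 (0.0578) were lost. Without animal 3 the calls of COL5A2 (adjusted p 0.0571), COL16A1 (0.0753) and COL11A2 (0.102) were lost too. With the animal as a block, COL12A1 also rose in SSAT (0.68, adjusted p 0.0260) and COL22A1 fell by 2.24 (adjusted p 0.0379).

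PRAT had the most chains below the others. In PRAT, 12 chains were lower and 1 was higher, against 3.29% lower and 7.60% higher over all gene models. It had the lowest median for 16 of 36 chains (44.4%, against 15.3% of all gene models) and the highest for 7 (19.4%, against 27.3%). COL1A1 had 827, 1555 and 7984 FPKM in PRAT and fell by 3.01 against the mean of the other depots (SE 0.54, adjusted p 0.000830). COL1A2 had 566, 1049.6 and 5569.6 FPKM in PRAT and fell by 2.84 (adjusted p 0.000830). COL3A1 had 770.3, 1846 and 4991 FPKM in PRAT and fell by 2.41 (adjusted p 0.000841). The median of COL1A1 was 29.1-fold higher in BSAT than in PRAT, and that of COL3A1 was 11.1-fold higher in SSAT than in PRAT.

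Of the other fibrillar, beaded-filament and FACIT chains, 9 were lower in PRAT, including 3 of 7 FACITs (class median −0.02). COL5A1 fell by 1.59 and COL5A2 by 1.23 in PRAT. COL6A6 fell by 2.45, COL6A3 by 1.49, COL6A1 by 0.99 and COL6A2 by 0.96. COL14A1 fell by 1.69, COL16A1 by 1.09 and COL21A1 by 0.98. COL14A1 had 4.00, 7.58 and 38.3 FPKM in PRAT, and its call was lost without animal 1 or 6 (adjusted p 0.0640 and 0.0599). The COL21A1 call was lost without animal 1, 2 or 6 (adjusted p 0.0639 to 0.0844), and that of COL6A3 without animal 2 (adjusted p 0.0506). PRAT also held the low value of COL6A3 in PRAT 2 (215 FPKM), a library with a B cell sum of 2646 FPKM. COL11A2 rose in PRAT (1.77, 4.35 and 5.27 FPKM, difference 0.89, adjusted p 0.0292), a call lost without animal 1, 2, 3 or 6 (adjusted p 0.0530 to 0.121). With the animal as a block, COL13A1 (1.57, adjusted p 0.0457) and COL9A2 (1.04, adjusted p 0.00833) were higher as well.

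The other depots had few calls. In BSAT, 1 chain was higher and 0 were lower, against 0.526% and 1.49% over all gene models. COL12A1 had 26.7, 50.0 and 90.2 FPKM in BSAT and was 1.04 higher (SE 0.25, adjusted p 0.0236), but the call was lost without animal 1, 2, 4, 5 or 6 (adjusted p 0.0567 to 0.221). COL1A1 had a BSAT difference of 1.84 that did not pass (adjusted p 0.0652). Without BSAT 3, 4 chains were called higher in BSAT. In IAT, 0 chains were higher and 0 lower by limma, against 0.136% and 0.0452% over all gene models. At an unadjusted p below 0.05 there were 8 of 36 chains, against 541 gene models higher and 929 lower of 17688. The lowest adjusted p was that of COL28A1 (0.2095), with 4.96, 9.02 and 23.5 FPKM in IAT and a difference of 1.62.

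In OAT, 0 chains were higher and 3 were lower, against 0.334% and 0.447% over all gene models. COL8A1 had 14.6, 32.6 and 69.6 FPKM in OAT and fell by 2.07 (SE 0.46, adjusted p 0.0207). COL21A1 had 1.45, 2.18 and 2.65 FPKM and fell by 1.18 (SE 0.25, adjusted p 0.0134). COL16A1 had 5.28, 7.999 and 10.6 FPKM and fell by 0.94 (SE 0.24, adjusted p 0.0480). All 3 calls were lost without the 6 libraries rich in B cell genes (adjusted p 0.108 to 0.294) and without animal 4 or animal 6 (adjusted p 0.0959 to 0.193). Those of COL16A1 (adjusted p 0.0753 to 0.271) and COL8A1 (0.0521 to 0.124) were also lost without animal 1, 3 or 5. The COL16A1 call was lost with a pseudocount of 1 (0.0532) or 0.01 (0.0515), with no filter (0.0626) and without BSAT 1 (0.0582). It was lost as well without BSAT 1, BSAT 2, SSAT 3 and IAT 1 (0.121). Without animal 2, 6 chains were called lower, and without animal 1 or animal 3, 1 was.

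In PCAT, 0 chains were higher and 1 was lower, against 3.26% and 1.01% over all gene models. COL12A1 had 8.02, 12.7 and 17.8 FPKM in PCAT and fell by 1.43 (SE 0.25, adjusted p 0.000354). COL12A1 was thus higher in BSAT and lower in PCAT, comparisons that share libraries. The highest PCAT library (17.8 FPKM) was below the lowest BSAT, SSAT and IAT libraries (26.7, 33.9 and 23.6 FPKM). With the animal as a block, COL4A5 (1.34, adjusted p 0.0420), COL6A5 (2.32, adjusted p 0.0478) and COL7A1 (0.95, adjusted p 0.0264) were higher in PCAT and COL8A2 fell by 0.73 (adjusted p 0.0407). Of 12 mesothelial markers tested, 9 were higher in PCAT, and their summed level was 5.95 to 2528 FPKM there. MSLN, a defining mesothelial marker, was listed at 0 in 23 of 36 libraries. Of 11 Schwann cell markers, 6 were higher in PCAT, with a summed level of 244 to 440 FPKM. The part of these cells in the PCAT values was not tested.

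The classes also differed in how much of their variation followed the depot. The share of the variance in log2(FPKM + 0.1) that lay between depots had a median of 59.3% for beaded-filament chains, 53.7% for fibrillar chains, 41.4% for FACITs, 31.3% for the other chains and 29.8% for basement membrane chains. COL21A1 (75.2%), COL6A6 (67.5%) and COL8A2 (66.2%) had the largest shares, although COL8A2 was above 0.1 FPKM in only 14 libraries. The animal took the largest share for COL9A2 (59.6%), followed by COL4A4 (42.2%), COL15A1 (39.8%), COL22A1 (36.6%) and COL5A3 (36.4%). For COL9A2, animal 5 had the lowest value in 6 of 6 depots, at 0.0912 to 0.137 FPKM. COL20A1 had the smallest SD of all tested chains (0.18 on the log2 scale). These shares are descriptions with no test.

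Between males and females, 0 chains were called by limma on the mean of each animal (n = 3 each). Over all gene models, 0% were called in either direction. At an unadjusted p below 0.05 there were 2 chains and 478 gene models. COL9A2 was 1.38 higher in males (SE 0.38) and COL7A1 was 0.58 higher in males (SE 0.20), both with an adjusted p of 1.000. The difference between the sexes in the contrast of SATs against VATs was called for 0 chains and 0 gene models, with 3 chains and 613 gene models at an unadjusted p below 0.05.

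The enzymes that act on collagen after translation were examined as lists. For these lists and those below, 7.90% of all gene models were higher and 22.1% were lower in SATs. The shares were 3.90% and 5.23% in SSAT, 7.60% and 3.29% in PRAT, 3.26% and 1.01% in PCAT, and 0.526% and 1.49% in BSAT. Of 15 genes that trim or crosslink procollagen, 8 were higher and 0 lower in SATs (median log2 fold change 0.81). These included ADAMTS2 (1.69, adjusted p 5.6e-06), the main protease of the procollagen amino end, LOXL4 (1.32, adjusted p 4.6e-06) and LOX (1.28, adjusted p 0.000981), which crosslink fibrils, and MEP1A (2.24, adjusted p 0.000149), a protease of the carboxyl end. In SSAT 6 were higher (LOXL1 1.34, ADAMTS2 1.32, LOXL3 1.16), and in PRAT 7 were lower (LOXL1 fell by 1.56, PCOLCE2 by 1.52, LOX by 1.49 and ADAMTS2 by 1.42). BSAT had 1 higher and 1 lower, PCAT 1 higher and 1 lower, and IAT and OAT none.

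Of 21 tested genes that fold and hydroxylate the chains inside the cell, 6 were higher and 2 lower in SATs, and the list median was 0.09. CREB3L1, a transcription factor for type I collagen, was 1.16 higher (adjusted p 0.000531) and FKBP10, a folding enzyme, was 0.87 higher (adjusted p 0.00314). The prolyl hydroxylase subunits split, with P4HA3 (0.69) and P4HA2 (0.53) higher while P4HA1 fell by 0.48 (adjusted p 0.00314). In PRAT 5 were lower, among them CREB3L1, which fell by 1.29, and FKBP10, which fell by 0.98. In PCAT 3 were higher (P3H2 1.28, P4HA1 0.75 and PLOD1 0.52). In BSAT P4HA1 fell by 0.70 and in SSAT P4HA3 rose by 0.82.

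Of 12 collagen receptors tested, 3 were higher and 1 lower in SATs. ITGA11, the fibroblast integrin subunit for fibrillar collagen, was 1.66 higher (adjusted p 0.000410), MRC2, which takes up collagen for breakdown, was 1.20 higher (adjusted p 0.000396), and CD44 was 0.60 higher. ADGRG6, an adhesion receptor that binds type IV collagen, fell by 0.97 (adjusted p 8.8e-06). ITGA11 and MRC2 were also higher in SSAT (1.88 and 0.98) and lower in PRAT, by 1.92 and 1.14. ADGRG6 (0.68) and DDR1 (0.45) were higher in PCAT.

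Markers of fibroblasts and their progenitors moved with the collagen chains. Of 17 tested, 15 were higher and 0 lower in SATs (median 1.40), 13 were higher and 0 lower in SSAT, and 11 were lower and 0 higher in PRAT. Among all gene models, 7.90% were higher in SATs, 3.90% were higher in SSAT and 3.29% were lower in PRAT. SFRP4 (3.14), CXCL14 (2.53), PI16 (2.37) and MFAP5 (1.73) had the largest differences between SATs and VATs. The summed level of the list was 2332, 5541 and 9911 FPKM in SATs and 1051, 2543 and 4895 FPKM in VATs. It was 5546 to 9911 FPKM in SSAT, 1051 to 3757 FPKM in PRAT and 2332 FPKM in BSAT 3. No marker of the list was listed at 0 in any library. In bulk tissue, fewer cells of a type and less RNA per cell cannot be told apart, and the part of fibroblast content in the collagen differences was not tested.

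The other marker lists gave mixed results. For all gene models the shares were 7.90% higher and 22.1% lower in SATs. In SATs, adipocyte markers had 1 of 18 higher (CAVIN1 0.64), mural and smooth muscle markers 1 of 8 higher (NOTCH3 0.74), skeletal muscle markers 0 of 11, and tendon markers 1 of 4 higher (FMOD, which binds type I fibrils, 2.51). In SSAT 2 of the 4 tendon markers were higher, FMOD (3.23, adjusted p 0.000197) and THBS4 (1.40, adjusted p 0.0376). In PRAT 1 of the 4 tendon markers was lower and 0 were higher. Of the 8 mural and smooth muscle markers, 2 were higher and 0 lower in SSAT, and 2 were lower and 0 higher in PRAT. The shares over all gene models were 3.90% higher in SSAT and 3.29% lower in PRAT. T cell markers had 10 of 14 lower in SATs, mesothelial markers 1 higher and 6 lower of 12, Schwann cell markers 2 higher and 6 lower of 11, and B cell markers 0 of 7 (median −1.28). Summed T cell levels were 16.3 to 792 FPKM in SATs and 13.8 to 2766 FPKM in VATs.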

How the data were processed

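Total RNA of 36 fat samples was extracted with a lipid tissue kit and sequenced (rRNA-depleted libraries per the study's methods, a TruSeq RNA kit per the labels). The deposited FPKM values were made by the authors from filtered reads with HISAT2 2.2.1 and StringTie 2.1.4 on an unpublished buffalo genome, so no coordinates are given. FPKM keeps no read number, and its precision at low values is unknown. The labels and the study's animal table give different breeds for some animals.

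Values were taken as log2(FPKM + 0.1), and gene models with a mean above 0.1 FPKM were tested with limma 3.58.1 (R 4.3.3, moderated with a trend) for SATs against VATs, each depot against its 5 counterparts, and males against females on animal means. p-values were adjusted by Benjamini-Hochberg over 17688 gene models. Every chain was accounted for. Depot values were given for the leading chain of each class, for chains of described ratios and for up to 5 called chains per class, and up to 4 called genes of at least 1 FPKM were named per other list. Some further chains were described after their values were seen. The members and lists were chosen with earlier results of these data known. Scripts were tested on simulated data.

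Same-numbered libraries come from the same animal. With depot means removed, libraries of the same animal had a mean correlation of 0.217 and those of different animals −0.0387. Alternatives were pseudocounts of 0.01 and 1, no filter, a mean of at least 10 FPKM, scaling to equal totals, quantile normalization, summed gene models, the animal as a block, leaving out single animals, and leaving out libraries. Leaving out BSAT 3 was chosen after seeing the data. RefSeq symbols matched 38 of the 40 chains.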

Additional observations from a re-analysis of the deposited data

Results flagged for a closer look

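Among 216 sets of 6 libraries of a depot (36 chains in 6 depots), 22 had a library that stood apart from the other 5. For a single set, chance gives about 1 in 20. The sets reuse the same libraries for every chain, so 22 of 216 cannot be set against that rate. BSAT 3 held 8 of the 22, each the lowest of its depot. Its values were 5252 FPKM for COL1A1 (next lowest 35590 FPKM), 2734 FPKM for COL1A2, 1783 FPKM for COL3A1, 229 FPKM for COL5A1, 2191 FPKM for COL6A1, 480.4 FPKM for COL6A2, 1443 FPKM for COL6A3 and 7.22 FPKM for COL16A1. The fibroblast marker sum of BSAT 3 was 2332 FPKM, the lowest of the SATs.

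COL6A6 stood apart in 3 libraries, high in SSAT 3 (769.6 FPKM) and IAT 1 (217 FPKM) and low in PCAT 5 (13.6 FPKM). COL6A3 was low in PRAT 2 (215 FPKM). COL22A1 was high in PCAT 2 (13.8 FPKM) and in SSAT 2 (1.47 FPKM), where the other SSAT libraries were listed at 0. In IAT 4, COL17A1 was high (28.1 FPKM) and COL15A1 was low (22.8 FPKM). In PRAT 4, COL4A6 (2.67 FPKM) and COL23A1 (0.509 FPKM) were high. COL4A3 was high in PRAT 1 (24.4 FPKM), COL24A1 in OAT 1 (5.56 FPKM) and COL28A1 in PCAT 1 (15.1 FPKM), and COL11A2 was low in PCAT 4 (0.994 FPKM).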

How the results depend on the processing

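The count of chains higher in SATs was 13 to 16 when each animal was left out, and the count lower was 3 to 4. The lower count (5) became 0 over gene models of at least 10 FPKM, 3 with quantile normalization, 2 without BSAT 1, BSAT 2, SSAT 3 and IAT 1, the libraries that the study left out of its network, and 3 with the animal as a block on animal means. BSAT higher (1) was 0 without those 4 libraries, 4 without BSAT 3, and 0 to 3 without single animals. SSAT higher (11) was 7 without the 4 libraries and 5 to 11 without single animals. Over all gene models that count (690) was 361 without the 4 libraries and 223 to 638 without single animals. SSAT lower (1) was 2 with a pseudocount of 0.01, 0 from 10 FPKM, 2 with the animal as a block, 0 without the 4 libraries, 2 without the 6 libraries rich in B cell genes, and 0 to 2 without single animals. OAT lower (3) was 0 without the 6 libraries and 0 to 6 without single animals, and OAT higher (0) was 0 to 1. OAT lower was 2 with a pseudocount of 0.01 or 1, with no filter, from 10 FPKM, without BSAT 1 and without the 4 libraries. Over all gene models OAT lower (79) was 42 without the 6 libraries and 28 to 215 without single animals. PCAT higher (0) was 1 with equal totals, 3 with the animal as a block, 2 without the 6 libraries, and 0 to 1 without single animals. PCAT lower (1) was 2 with quantile normalization, with the block or without BSAT 3, and 1 to 2 without single animals. PRAT higher (1) was 3 with the block, 0 from 10 FPKM, with quantile normalization or without the 4 or the 6 libraries, and 0 to 1 without single animals. PRAT lower (12) was 10 to 14 without single animals, while that count over all gene models (582) was 218 to 666. COL15A1 turned to −0.42 without the 6 libraries. With the animal as a block, calls other than those named in the report did not change in SATs against VATs. On animal means with the block, COL2A1 (adjusted p 0.135), COL24A1 (0.0945) and COL4A6 (0.193) lost their calls. Over all alternatives, checks of single chains lost a call 94 times, gained it 19 times and reversed 1 time, against 1126 with the same call. The causes were not tested, except that limits on FPKM remove low chains. Depth per library is unknown, so values near 0 have no stated error.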
